A study of Mus musculus with 6 samples.

Results

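The SOXD genes *Sox5*, *Sox6* and *Sox13* and the SOXE genes *Sox8*, *Sox9* and *Sox10* were examined for open chromatin in neural stem/progenitor cells (NSPCs) with and without the *Sox2* enhancer cluster SRR2–18. An interval of a peak list was assigned to 1 of these 6 genes when the gene had the nearest protein-coding transcription start site (TSS) to its strongest summit, at most 50 kb away. This gave 81 intervals of 190365, of which 49 of 82885 stood in the parent list and 32 of 107480 in the ΔSRR2–18 list.

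SOX factors share a DNA-binding HMG box that recognizes a short core sequence and bends DNA, and they fall into groups by the similarity of this box. SOX2 belongs to the SOXB1 group, which maintains neural progenitors. The SOXE factors are known for the switch to gliogenesis and later steps of the glial lineage. SOX9 is also the central regulator of cartilage, and SOX10 acts in neural crest, Schwann cells and myelinating oligodendrocytes. SOXE factors carry an activation domain and can bind as dimers to paired cores. SOXD factors lack a known activation domain and dimerize through a coiled coil, and they restrain or assist SOXE factors depending on the tissue.

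Open chromatin was measured by ATAC-seq, in which a transposase inserts sequencing adapters into accessible DNA. Both lines were made from F1 embryonic stem cells (strain label 129S1/Cast F1 Hybrid), with 1 haploid genome each from *M. musculus* and *M. castaneus*, and were grown as NSPCs on poly-D-lysine and laminin in N2B27 medium with EGF and bFGF. The parent line, labelled Clone 5B with genotype Sox2-mCherry (129), has a fluorescent tag on the 129 allele of *Sox2* and no deletion. The ΔSRR2–18 line, labelled Clone 47D, lacks SRR2–18 on both alleles. Each genotype is thus 1 clone, with 3 cultures per genotype, so a difference between genotypes and a difference between clones cannot be told apart. The labels give 30000 cells and a depth of 50 to 60 M reads per culture.

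The deposited peak lists pool the 3 cultures of a genotype, so values carry no error between cultures and the genotypes are compared by size alone, without a test. Open chromatin in fewer cells and less opening per cell cannot be told apart in such bulk data. The height of an interval is the number of reads at its tallest summit divided by the mean read pileup of the genome, or 38.8 reads for parent and 19.7 reads for ΔSRR2–18 NSPCs. Pooled depth therefore differed by 1.98-fold, and heights are on a common scale after this division. Local background is the read level around the strongest summit on the same scale. Intervals in brackets are 95% Wilson intervals of a share, or exact binomial-based intervals of a ratio of heights, and they cover counting error only. As a check of the genotype, the 16308 bp between the predicted cuts of the guide RNAs (chromosome 3, 34653746 to 34670054, mm10) held 4 parent intervals and 0 ΔSRR2–18 intervals. The labelled cell type was checked on the peak lists only: all 10 genes of the astrocyte and radial glia list had a parent interval and 9 had one in ΔSRR2–18 NSPCs, and *Sox2* itself had 9 and 4 intervals. This does not single out NSPCs, since all 6 neuron genes had an interval in both lists, the 11 neural crest and Schwann cell genes had one for 9 and 11, and 16127 and 16911 of all 21924 protein-coding genes did.

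Most open intervals at the SOXD and SOXE genes were not shared by the genotypes. In parent NSPCs, 34 of 49 intervals (69.4%, 55.5–80.5) had no overlapping interval in the ΔSRR2–18 list, against 45.0% of all 55017 parent intervals assigned to a protein-coding gene. In ΔSRR2–18 NSPCs, 18 of 32 intervals (56.2%, 39.3–71.8) had no parent counterpart, which is close to the 53.0% of all 64666 assigned intervals there. Although the ΔSRR2–18 list was the longer one, 5 of the 6 genes had more intervals in the parent list within the distance limit, and *Sox9* had 7 and 8. Without the limit, *Sox5* had 38 parent and 53 ΔSRR2–18 intervals, and the other genes kept their order. How many of all genes have more parent intervals was not counted.

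The parent-only share was above 45.0% in both groups of genes. SOXD genes held 31 parent intervals, 22 of them parent-only (71.0%, 53.4–83.9), and 18 ΔSRR2–18 intervals, 10 of them deletion-only. For SOXE genes the counts were 18 parent intervals with 12 parent-only (66.7%, 43.7–83.7) and 14 ΔSRR2–18 intervals with 8 deletion-only. The SOXE interval includes the share over all genes and the SOXD interval does not, although the 2 shares are close. More than 1 kb from any annotated TSS, the parent-only shares were 76.9% (57.9–89) for SOXD and 75% (46.8–91.1) for SOXE genes. The share over all genes there was 57.8%, just below the lower SOXD bound. Differences between the groups were not tested. Neighbouring intervals of a gene are not independent, which these intervals do not account for.

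Most of the intervals lay away from promoters, where the share found in 1 genotype was higher for all genes too. More than 1 kb from any annotated TSS, 29 of 38 parent intervals (76.3%, 60.8–87.0) were parent-only, against 57.8% over all genes. The corresponding deletion-only count was 18 of 26 (69.2%, 50.0–83.5), against 65.2%. Within 1 kb of a TSS of any gene, 5 of 11 parent intervals were parent-only, where 12.8% of all such intervals were. Of the ΔSRR2–18 intervals there, 0 of 6 were deletion-only, where 18.0% were. The parent-only ones at *Sox6* and *Sox13* lay 0.195 and 0.126 kb from a TSS of the gene itself. Those at *Sox8* and *Sox10* lay near a TSS of another gene and more than 1 kb from their own.

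**Figure D1:**
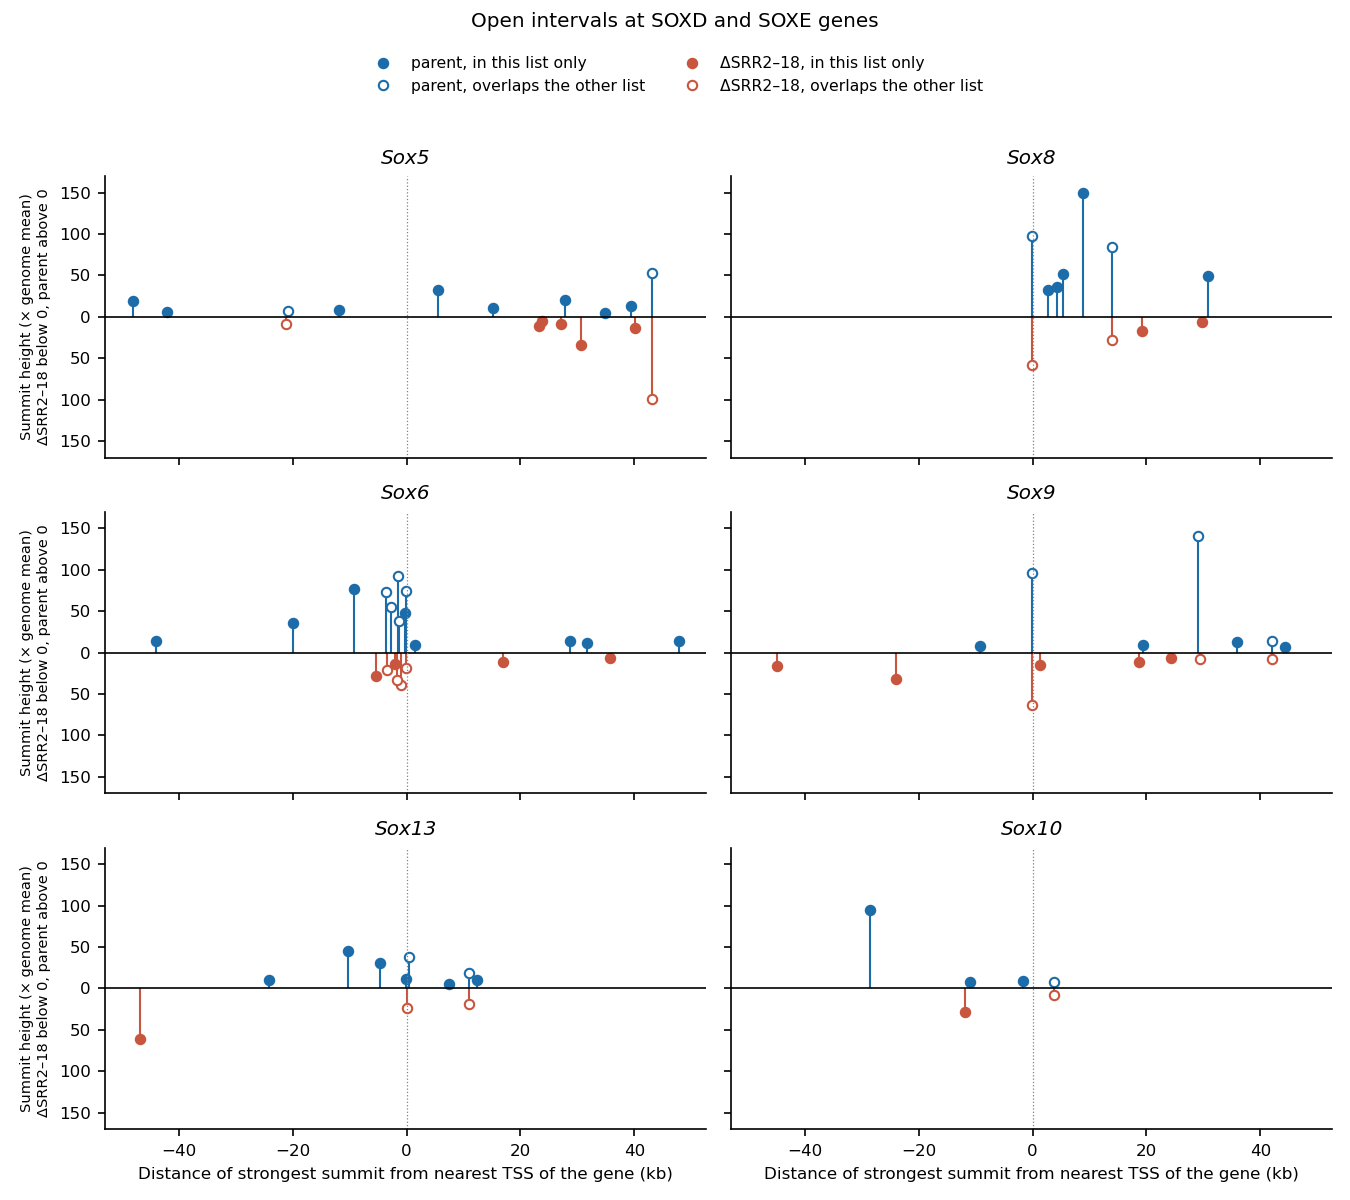
Open intervals at the 6 genes. The x axis gives the distance of the strongest summit from the nearest TSS of the gene in kb, positive in the direction of transcription. The y axis gives summit height as a multiple of the genome mean, with the 49 parent intervals above 0 and the 32 ΔSRR2–18 intervals below 0. Filled points lie in that list only and open points overlap the other list. The tallest parent points, 149 at *Sox8* and 141 at *Sox9*, have no point of like height below them, while at *Sox5* the tallest point belongs to ΔSRR2–18 NSPCs (99).

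Annotated start sites of the 6 genes were counted without the share over all genes beside them, so these counts are descriptive. Of 18 TSSs of the 6 genes, 7 lay inside a parent interval and 4 inside a ΔSRR2–18 interval, and those 4 were covered in both. *Sox8* and *Sox9* have 1 TSS each, covered in both genotypes. *Sox13* had all 3 covered in parent and 1 in ΔSRR2–18 NSPCs, and *Sox6* had 2 of 6 and 1. The *Sox13* TSSs covered in parent only lay under a single interval, with a height of 11.4. None of the 5 TSSs of *Sox5* or the 2 of *Sox10* was covered in either list, so both genes were represented by distal intervals alone apart from 1 *Sox10* interval within 1 kb of a TSS of another gene.

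*Sox5* (ENSMUSG00000041540.16; chromosome 6, 143828425 to 144781977, reverse strand) encodes a SOXD factor that controls the timing of cortical projection neurons and keeps oligodendrocyte precursors from early differentiation. It had 10 parent intervals, 8 of them parent-only, and 7 ΔSRR2–18 intervals, 5 of them deletion-only. All 17 lay in introns of *Sox5* itself. The genotypes shared its strongest interval, which lay 43.1 kb downstream of a TSS, with a height of 53 in parent and 99 in ΔSRR2–18 NSPCs, a ratio of 1.87 (1.75–1.99). No other overlapping pair of the 6 genes had a higher ratio. The other shared interval, 20.8 kb upstream of a TSS, was low in both genotypes, at 6.59 and 9.36. The tallest parent-only interval, 5.56 kb downstream, reached 31.8, and the tallest deletion-only interval, 30.6 kb downstream, reached 34.7.

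The bases around these summits are shown on the forward strand of mm10, read 5′ to 3′, because they carry consensus matches that are counted for all intervals further on. Capitals mark a SOX core (ACAAAG or ACAATG) in the parent-only sequence, a TEAD match (ACATTCC) followed by a SOX core in the deletion-only sequence, and an AP-1 match (TGANTCA) in the shared sequence. The SOX cores are on the opposite strand in both cases. Outside the bases shown, but still at most 100 bp from the summit, lay an AP-1 and a HOX-PBX match in the deletion-only interval and a SOX core in the shared one.
Sox5 parent-only, chr6:143941498-143941598: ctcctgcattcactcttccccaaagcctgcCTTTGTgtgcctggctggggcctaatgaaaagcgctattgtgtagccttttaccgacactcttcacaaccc
Sox5 deletion-only, chr6:143916496-143916596: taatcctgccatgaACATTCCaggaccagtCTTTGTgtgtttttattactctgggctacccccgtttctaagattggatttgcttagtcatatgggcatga
Sox5 shared, higher in ΔSRR2–18, chr6:144166254-144166354: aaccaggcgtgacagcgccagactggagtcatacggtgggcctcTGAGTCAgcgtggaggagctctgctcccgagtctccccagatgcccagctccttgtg

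*Sox6* (ENSMUSG00000051910.13; chromosome 7, 115470872 to 116038796, reverse strand) encodes a SOXD factor of cortical interneurons, muscle and the oligodendrocyte lineage. It had the most intervals of the 6 genes, with 13 in the parent list, 8 of them parent-only, and 8 in the ΔSRR2–18 list, 4 of them deletion-only. Of 5 overlapping pairs, 4 were at least 2-fold lower in height in ΔSRR2–18 NSPCs, and 2 of these 4 share 1 ΔSRR2–18 interval.

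At an internal *Sox6* TSS, the covering interval had a height of 74.2 in parent and 18.8 in ΔSRR2–18 NSPCs, a ratio of 0.254 (0.227–0.283). The interval 1.55 kb upstream of the 5′-most TSS, in an intron of *1110004F10Rik*, had a height of 93 in parent and 33.3 in ΔSRR2–18 NSPCs (ratio 0.358, 0.329–0.389). In both pairs the summits of the lists were at most 71 bp apart. Around the TSS at 116031047, the parent list held 4 intervals on a local background of 12.2 to 12.4 times the genome mean. The interval over this TSS (height 47.2) was parent-only, and the pair of intervals 2.82 and 3.53 kb upstream, at 55.2 and 73.5, overlapped a single ΔSRR2–18 interval with a height of 20.5. The fourth, in an exon of the antisense gene *Sox6os*, was alike in height, at 37.7 and 39.2, with summits 420 bp apart. The ΔSRR2–18 list held a deletion-only interval in this cluster, 2.09 kb upstream with a height of 14.2, and its local backgrounds there were 4.68 to 5.11.

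Farther from start sites, the tallest parent-only interval lay 9.22 kb upstream of an internal TSS, reached 77 and held no consensus match. A further parent-only interval 20.0 kb upstream reached 35.9. The tallest deletion-only interval, 5.44 kb upstream of another internal TSS and inside an intron shared with *Gm45025*, reached 28.3. The sequences of the internal TSS interval and of this deletion-only interval are shown for their SOX cores, in capitals. The deletion-only sequence also holds a TEAD match on the opposite strand, and the internal TSS interval an NFI match outside the bases shown.
Sox6 shared, lower in ΔSRR2–18, chr7:115824734-115824834: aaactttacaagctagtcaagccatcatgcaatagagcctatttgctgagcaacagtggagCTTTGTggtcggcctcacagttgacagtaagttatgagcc
Sox6 deletion-only, chr7:116000477-116000577: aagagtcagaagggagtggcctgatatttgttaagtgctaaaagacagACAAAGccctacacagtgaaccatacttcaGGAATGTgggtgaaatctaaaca

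*Sox13* (ENSMUSG00000070643.11; chromosome 1, 133382303 to 133424377, reverse strand) encodes the third SOXD factor. Parent NSPCs had 8 intervals, 6 of them parent-only, and ΔSRR2–18 NSPCs had 3, 1 of them deletion-only. At the 5′-most TSS, the shared interval had a height of 37.7 in parent and 23.3 in ΔSRR2–18 NSPCs. A shared interval 11.0 kb downstream of a TSS, with a CTCF match, had nearly the same height in both genotypes, at 18.7 and 18.8 (ratio 1.01, 0.887–1.14). Parent-only intervals included the 1 interval over the other TSSs (height 11.4), an interval 4.69 kb upstream of them (30.3) and the tallest, 10.2 kb upstream of the gene (44.7). The single deletion-only interval, which held no consensus match, was the tallest of the gene, at 61.4, and lay 46.9 kb upstream. The optimal list of the parent, a more inclusive version of its peaks, held an overlapping interval there, at a height 3.10 lower on the log2 scale.

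Among all 81 intervals, the one over the internal *Sox13* TSSs was alone in holding an inverted pair of SOX cores at most 100 bp from its strongest summit. The cores could stand in either order, with at most 10 bases between them. Here CTTTGT comes before ACAAAG, and whether SOX dimers bind this order was not tested. Over all genes, 0.574% of parent intervals held such a pair. Its sequence is shown for this pair, the first pair of capital runs, and for a CTCF match, the last. The tallest parent-only sequence is shown for its SOX core.
Sox13 parent-only at internal TSS, chr1:133393296-133393496: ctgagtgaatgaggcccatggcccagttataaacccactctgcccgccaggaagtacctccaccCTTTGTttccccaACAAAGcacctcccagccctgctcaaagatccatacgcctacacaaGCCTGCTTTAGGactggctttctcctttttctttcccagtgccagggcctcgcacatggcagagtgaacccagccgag
Sox13 parent-only upstream, chr1:133434527-133434627: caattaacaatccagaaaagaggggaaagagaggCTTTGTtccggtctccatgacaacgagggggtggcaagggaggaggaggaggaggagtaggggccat

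*Sox8* (ENSMUSG00000024176.10; chromosome 17, 25565892 to 25570686, reverse strand) encodes a SOXE factor that overlaps in function with SOX9 and SOX10 in glia. In parent NSPCs, 5 of its 7 intervals were parent-only, and its local backgrounds, the highest of the 6 genes by median, ran from 2.53 to 19.5 times the genome mean. The 4 ΔSRR2–18 intervals lay on backgrounds from 1.00 to 3.50. The tallest interval of all 81 was the parent-only one 8.93 kb downstream of the TSS, with a height of 149 that placed it in the top 2.37% of parent intervals. The interval at the TSS had a height of 97.7 in parent and 58.1 in ΔSRR2–18 NSPCs, a ratio of 0.595 (0.556–0.636). Its fold enrichment over local background went the other way, at 6.51 in parent and 16.4 in ΔSRR2–18 NSPCs, since the background there was 15.0 and 3.50.

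Downstream of *Sox8*, the shared interval at 13.9 kb had a height of 83.7 in parent and 28 in ΔSRR2–18 NSPCs (ratio 0.334, 0.305–0.366). Parent-only intervals at 5.32 kb and 30.9 kb reached 51.3 and 49.3, on unlike local backgrounds of 15.2 and 2.53. Their fold enrichments were 3.36 and 19.3. The parent-only intervals at 4.24 kb and 2.67 kb reached 35.8 and 32.2, with fold enrichments of only 1.83 and 2.20. The deletion-only intervals, at 19.2 kb and 29.7 kb, were lower, at 17.5 and 5.90. The tallest parent-only and deletion-only sequences are set side by side. The first holds a SOX core. The second holds a HOX-PBX match (TGATTNAT) on the opposite strand, which contains an AP-1 match, so both counts include the same bases.
Sox8 parent-only, chr17:25561703-25561803: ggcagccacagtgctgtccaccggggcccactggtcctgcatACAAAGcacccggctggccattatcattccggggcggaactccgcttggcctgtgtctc
Sox8 deletion-only, chr17:25551463-25551563: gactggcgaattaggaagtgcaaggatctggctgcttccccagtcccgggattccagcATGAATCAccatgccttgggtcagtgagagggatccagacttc

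*Sox9* (ENSMUSG00000000567.5; chromosome 11, 112782224 to 112787760, forward strand) encodes the SOXE factor that starts gliogenesis in the neural tube. Its promoter was open in both genotypes, with a height of 96.5 in parent and 63.6 in ΔSRR2–18 NSPCs (ratio 0.659, 0.618–0.703) and local backgrounds of 8.19 and 6.39. The interval 29.1 kb downstream differed most between the genotypes among all overlapping intervals of the 6 genes. It reached 141 in parent NSPCs, in the top 3.01% of the list, whereas the overlapping ΔSRR2–18 interval reached 7.78, in the top 86.9% (ratio 0.0553, 0.0468–0.0649). The strongest summits of the pair were 360 bp apart, and local background was 9.92 in parent and 1.00 in ΔSRR2–18 NSPCs.

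The other distal intervals at *Sox9* were far below 141 in height. The 4 parent-only intervals ran from 7.08 to 12.4, and the 5 deletion-only intervals from 6.51 to 31.8. The tallest deletion-only interval lay 24.0 kb upstream, in an intron of *BC006965*. A shared interval 42.1 kb downstream had heights of 13.5 and 7.68. The sequences at the parent summit of the 29.1 kb interval and at the promoter are shown because they hold different matches. In the first, the capitals are a SOX core, read here as CATTGT, and, after 1 base, the octamer ATGCAAAT that POU factors bind. In the second, they are an NFI match (TTGGCA, here on the opposite strand) and an AP-1 match. At most 100 bp from its own summit, the overlapping ΔSRR2–18 interval held SOX, AP-1 and NFI matches and no octamer, although the octamer shown lies inside it.
Sox9 shared, lower in ΔSRR2–18, chr11:112811264-112811364: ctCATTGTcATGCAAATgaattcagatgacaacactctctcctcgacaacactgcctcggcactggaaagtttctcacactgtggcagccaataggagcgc
Sox9 promoter, chr11:112782089-112782189: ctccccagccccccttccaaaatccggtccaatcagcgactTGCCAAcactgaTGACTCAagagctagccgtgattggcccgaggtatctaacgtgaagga

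The pairing of a SOX core and an octamer is a form known from SOX2 and POU partners. It was searched in all intervals only after the sequence at *Sox9* had been seen. Of the 55017 assigned parent intervals, 1 had this exact arrangement at most 100 bp from its summit, namely that at *Sox9*. Of the 64666 ΔSRR2–18 intervals, 0 had it within that distance. The same bases at *Sox9* do lie inside the overlapping ΔSRR2–18 interval (112811149 to 112811928). They are more than 100 bp from its strongest summit and so were not counted there. Being chosen after the fact, these counts are a description only. Within the same distance of the summit, the octamer alone was present in 3 of the 49 parent intervals and 0 of the 32 ΔSRR2–18 intervals, against 1.78% and 1.03% over all genes.

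*Sox10* (ENSMUSG00000033006.10; chromosome 15, 79154908 to 79165240, reverse strand) encodes the SOXE factor of neural crest and myelinating glia. It had the fewest intervals, 4 in the parent list, 3 of them parent-only, and 2 in the ΔSRR2–18 list, 1 of them deletion-only. The tallest was parent-only, 28.5 kb upstream of the gene in an intron of *Gm10863*, with a height of 95 on a local background of 8.43 and no consensus match. The shared interval, in an intron of *Sox10* 3.83 kb downstream of a TSS, was low in both genotypes, at 7.34 and 7.73 (ratio 1.05, 0.860–1.29). The other parent-only intervals, 1.73 kb and 10.9 kb upstream, had heights of 8.86 and 7.16. The deletion-only interval 11.8 kb upstream reached 28.4, and the optimal parent list held an overlapping interval there, at a height 3.10 lower on the log2 scale. Its sequence is shown for a pair of AP-1 matches, in capitals.
Sox10 deletion-only, chr15:79177005-79177105: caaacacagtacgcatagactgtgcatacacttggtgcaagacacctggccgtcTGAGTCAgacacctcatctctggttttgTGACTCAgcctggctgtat

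Among intervals open in both genotypes, the share of lower heights in ΔSRR2–18 NSPCs at the 6 genes was close to that over all genes, and the median ratio was lower. The 15 parent intervals with a ΔSRR2–18 counterpart gave 10 lower and 5 higher heights (66.7% lower, against 65.5% over all genes), with a median log2 ratio of −0.75, against −0.30 over all 30232 overlapping pairs. A height at least 2-fold lower was found for 6 of 15 pairs, where 15.1% of all pairs were, and a height at least 2-fold higher for 0, where 12.8% were. The 6 pairs were at *Sox6* (4), *Sox8* (1) and *Sox9* (1), and 2 of those at *Sox6* share 1 ΔSRR2–18 interval. Dividing all heights by the median pair left the count of lower pairs at 6 and made the *Sox5* interval 43.1 kb downstream at least 2-fold higher.

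**Figure D2:**
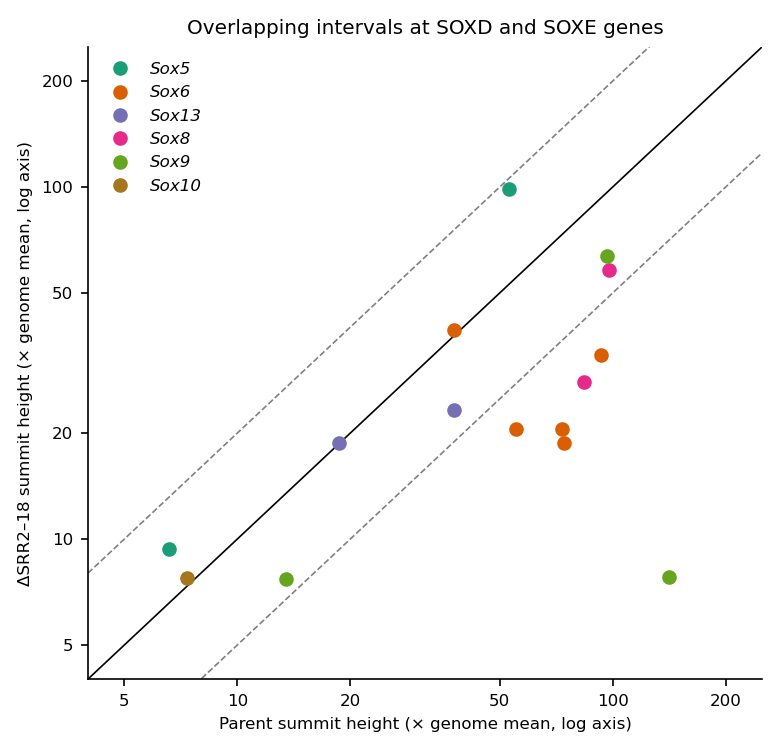
Summit heights of the 15 overlapping pairs of intervals, as multiples of the genome mean, with parent NSPCs on the x axis and ΔSRR2–18 NSPCs on the y axis, both logarithmic. Colours mark the gene, the solid line marks equal heights and the dashed lines mark 2-fold differences. Below the lower dashed line lie 6 points, with the *Sox9* pair at 141 and 7.78 farthest from it, and no point lies above the upper dashed line.

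Local background around the summits was lower in ΔSRR2–18 NSPCs in 14 of 15 pairs, where 71.8% of all pairs were, and at least 2-fold lower in 9, where 11.3% were, with a median log2 ratio of −1.12, against −0.25 over all pairs. The 9 included all 5 pairs at *Sox6* and both at *Sox8*. Neighbouring pairs of a gene lie on much the same background, and some at *Sox6* share a ΔSRR2–18 interval, so the pairs are not independent. Fold enrichment divides the reads by this background and was higher in ΔSRR2–18 NSPCs in 9 of the 15 pairs, where 49.3% of all pairs were. Ranked by fold enrichment within each list, 7 of 15 pairs were lower in ΔSRR2–18 NSPCs, compared with 10 by height. Of the 6 pairs that were at least 2-fold lower in height, the *Sox6* internal TSS and the *Sox8* interval at 13.9 kb then ranked higher in ΔSRR2–18 NSPCs.

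High local background was not a common trait of the 6 genes. In the parent list, median local background was highest at *Sox8* (14.6), followed by *Sox6* (3.55) and *Sox13* (1.77), whereas at *Sox5*, *Sox9* and *Sox10* it was 1.04 to 1.07, with a few high intervals each. In the ΔSRR2–18 list, the medians lay between 1.00 and 2.49 and no interval exceeded 6.53. Of 49 parent intervals, 23 had a background at least 2-fold above the genome mean (46.9%), close to the 50.7% over all genes, and in the ΔSRR2–18 list 12 of 32 had one (37.5%, against 47.8%).

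**Figure D3:**
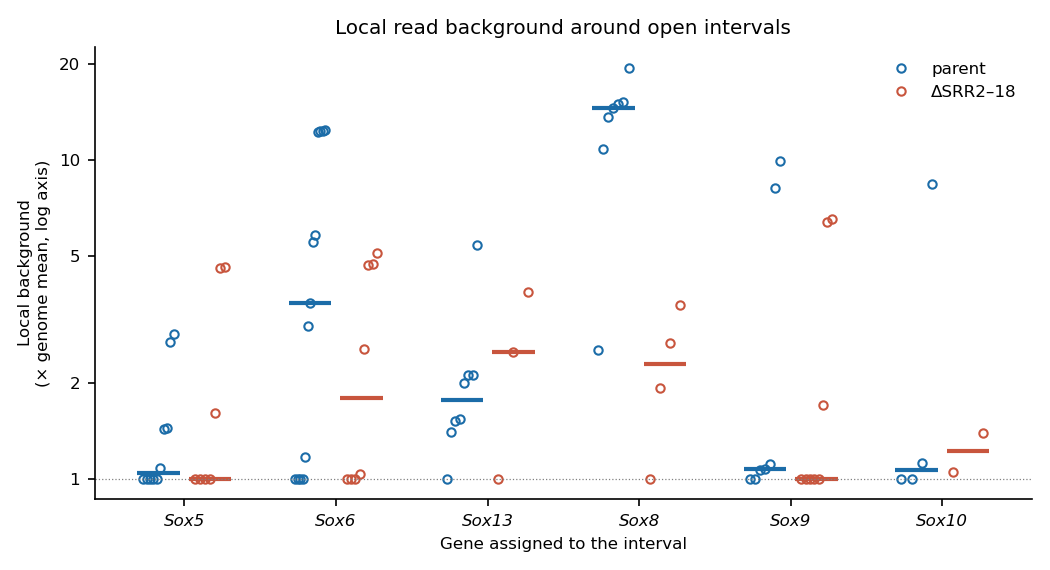
Local background around the strongest summit of each interval, as a multiple of the genome mean on a logarithmic axis, for the 6 genes. Each circle is 1 interval and horizontal bars are medians over the intervals of a gene and list. The parent values at *Sox8*, 2.53 to 19.5, overlap the ΔSRR2–18 values there, 1.00 to 3.50, only at the low end, and a group of *Sox6* intervals near 12.3 in the parent has its counterparts near 5 in ΔSRR2–18 NSPCs.

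Consensus matches at intervals in 1 list only were found at shares whose Wilson intervals included the share over all genes, for SOX, AP-1 and NFI alike. A match was an exact occurrence of the letters, in either orientation, at most 100 bp from the strongest summit. For NFI, the letters were TTGGCA alone, without the palindromic consensus that is counted further on. SOX cores were found in 13 of 34 parent-only intervals (38.2%, 23.9–55.0) and 36.2% of all parent-only intervals. In deletion-only intervals they were found in 4 of 18 (22.2%, 9–45.2), against 24.0%. In windows of the same width centred 500 bp from these summits, SOX cores stood at 35.3% of parent-only and 33.3% of deletion-only intervals. Over all genes, the shares in such windows were 25.2% and 25.9%. At the 6 genes, SOX shares at summits were thus near or below those 500 bp away, which was not tested. AP-1 matches stood at 2.94% and 0% of these windows, against 5.48% and 6.31% over all genes. AP-1 matches, the site of JUN and FOS dimers, were found in 0 of 34 parent-only intervals (0 to 10.2%), against 4.18%, and in 9 of 18 deletion-only intervals (50.0%, 29.0–71.0), against 50.8%. NFI matches stood at 6 of 34 parent-only intervals (17.6%, 8.35–33.5), against 27.0%, and at 1 of 18 deletion-only intervals (5.56%, 0.988–25.8), against 11.3%.

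Intervals open in both genotypes held NFI, AP-1 and SOX matches at higher shares than such intervals over all genes, which was not tested. In the ΔSRR2–18 list, 6 of 14 shared intervals had an NFI match (42.9%, 21.4–67.4) and 5 had an AP-1 match (35.7%, 16.3–61.2), against 10.7% and 13.2% over all genes. In the parent list, the corresponding counts were 5 of 15 for NFI (33.3%, 15.2–58.3) and 3 of 15 for AP-1 (20.0%, 7.05–45.2), against 12.4% and 8.43%. SOX cores stood at 5 of 14 in the ΔSRR2–18 list (35.7%, 16.3–61.2), against 18.0%, and 5 of 15 in the parent list (33.3%, 15.2–58.3), against 19.5%. The share over all genes lay inside the Wilson interval for SOX in both lists and for AP-1 in the parent list. CTCF matches stood at 28.6% in the ΔSRR2–18 list and 20.0% in the parent list, against 18.6% and 19.0%. The 2 lists overlap at these intervals, so their counts are not independent.

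Among single genes, AP-1 matches were most numerous at *Sox9*. They stood at 6 of its 8 ΔSRR2–18 intervals and 2 of its 7 parent intervals. Over all genes, 33.1% of ΔSRR2–18 and 6.52% of parent intervals held an AP-1 match. *Sox5* followed with 4 of 7 and 1 of 10, *Sox6* with 2 of 8 and 0 of 13, and *Sox8* and *Sox10* with 1 each in the ΔSRR2–18 list and 0 in the parent list. *Sox13* had 0 in both. SOX cores were distributed differently, at 6 of 10 parent intervals of *Sox5*, 4 of 8 of *Sox13*, 4 of 7 of *Sox9*, 3 of 13 of *Sox6*, 1 of 7 of *Sox8* and 0 of 4 of *Sox10*. Over all genes, 27.0% of parent intervals held a SOX core. The counts per gene are small, and differences between genes were not tested. The palindromic NFI consensus was found at 0 of the 81 intervals, against 0.133% of all parent and 0.0479% of all ΔSRR2–18 intervals. CTCF matches stood at 5 of 34 parent-only intervals (14.7%, against 9.80%) and 2 of 18 deletion-only intervals (11.1%, against 3.84%).

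**Figure D4:**
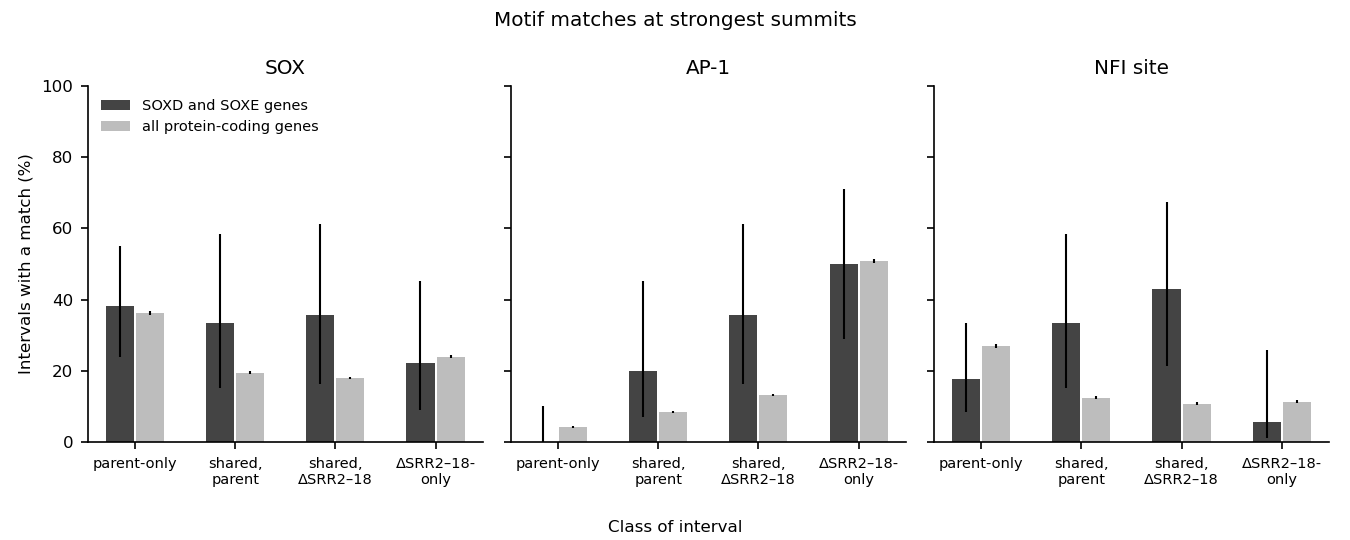
Percentage of intervals with a SOX, AP-1 or NFI match near the strongest summit, for the SOXD and SOXE genes (dark bars) and all protein-coding genes (light bars), by class of interval. NFI matches are of TTGGCA alone. Lines are 95% Wilson intervals for counting error. AP-1 matches stand at 0% of parent-only and 50.0% of deletion-only intervals of the 6 genes, next to 4.18% and 50.8% over all genes, and the lines for the 6 genes are wide.

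Beyond the 50 kb limit, the balance between the genotypes depended on the gene. With no limit on distance, 157 parent and 149 ΔSRR2–18 intervals had 1 of the 6 genes as nearest, with 120 parent-only (76.4%) and 113 deletion-only (75.8%), against 52.3% and 63.1% over all genes. *Sox6* gained 39 parent and 20 ΔSRR2–18 intervals beyond the limit. *Sox5* and *Sox9* showed the opposite order, with 28 and 46 intervals at *Sox5* and 40 and 48 at *Sox9*, which lies next to long gene deserts. *Sox13* gained 1 and 3, and *Sox8* and *Sox10* none. The long bodies of the SOXD genes gave the same contrast, since 38 parent and 25 ΔSRR2–18 intervals fell within the 568 kb of *Sox6*, and 39 and 58 within the 954 kb of *Sox5*. The interval nearest to the limit on its inner side was at *Sox5* in the parent list (48.1 kb, height 18.6) and at *Sox13* in the ΔSRR2–18 list (46.9 kb, height 61.4). On the outer side, the nearest were at *Sox6* (50.6 kb, height 22.8) and *Sox9* (52.2 kb, height 4.99).

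The same counts were made for other SOX groups and for lists of partner and target genes. SOXB1 genes had 10 of 19 parent intervals parent-only and 3 of 11 ΔSRR2–18 intervals deletion-only, and SOXB2 genes had 7 of 12 and 2 of 7. SOXC genes, which act in differentiating neurons, had 20 intervals in each list with 10 in that list only. SOXF genes, known from endothelium and endoderm, had 3 of 8 parent-only and 9 of 14 deletion-only, with Wilson intervals that include the share over all genes. The SOXG and SOXH genes had 0 of 3 and 3 of 6.

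Of the partner lists, the oligodendrocyte lineage genes had 40 of 59 parent intervals parent-only (67.8%, 55.1–78.3) and 26 of 46 ΔSRR2–18 intervals deletion-only (56.5%, 42.2–69.8), next to 69.4% and 56.2% at the SOXD and SOXE genes. The astrocyte and radial glia genes had 56 of 92 (60.9%, 50.7–70.2) and 27 of 62 (43.5%, 31.9–55.9). Within these lists, *Olig2*, which specifies oligodendrocyte precursors, had 10 parent and 4 ΔSRR2–18 intervals, and *Nfia*, a partner of SOX9 in astrocytes, had 18 and 12. Neural crest and Schwann cell genes had 27 of 56 (48.2%, 35.7–61) and 47 of 76 (61.8%, 50.6–71.9), with both Wilson intervals including the share over all genes, and *Tfap2b* among them had 0 parent and 6 ΔSRR2–18 intervals. Cartilage genes, targets of SOX9 with SOX5 and SOX6, had 11 of 25 and 13 of 27, and neuron genes had 13 of 27 and 11 of 25. The genes of a list were few and their intervals clustered, and neither differences between lists nor their part in the results at the SOXD and SOXE genes were tested.

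**Figure D5:**
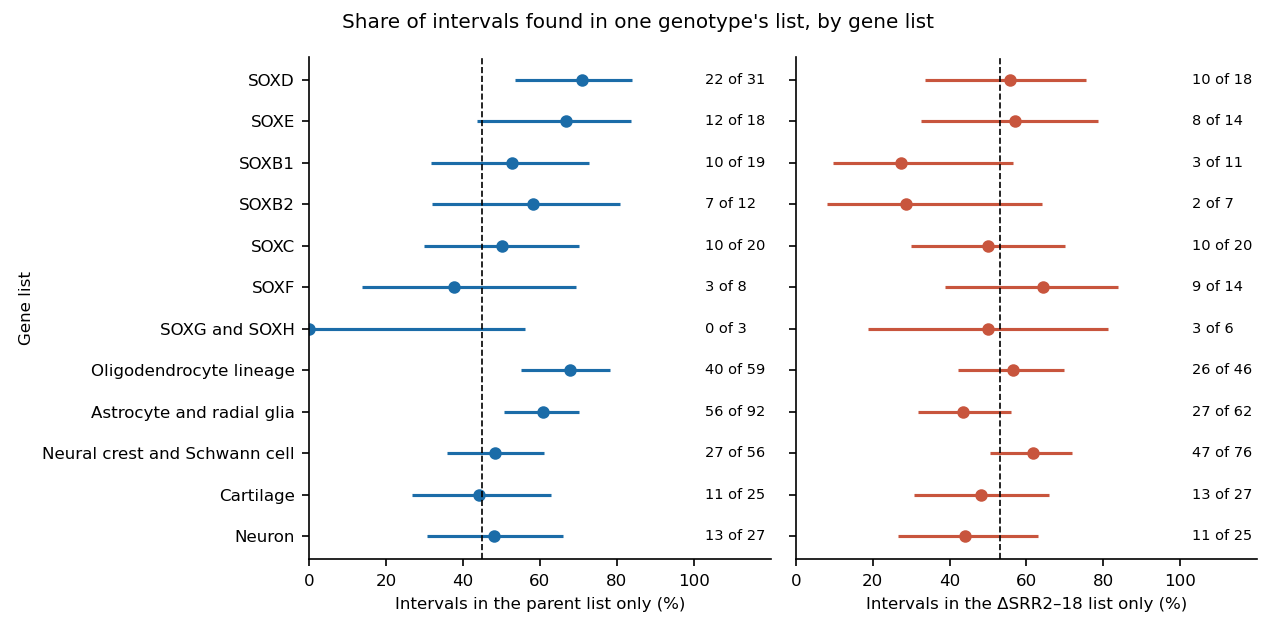
Percentage of intervals found in 1 genotype's list only, for each gene list, with the parent list on the left and the ΔSRR2–18 list on the right. Points are shares, lines are 95% Wilson intervals for counting error, the counts stand at the right of each row, and the dashed line is the share over all protein-coding genes (45.0% and 53.0%). On the left, the SOXD, oligodendrocyte and astrocyte lines lie wholly above the dashed line.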

How the data were processed

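ATAC-seq was performed on 3 cultures per genotype. The authors processed reads with the ENCODE ATAC-seq pipeline (v1.10.0, mm10) and deposited, per genotype, a conservative and an optimal narrowPeak list pooled over the cultures, so these values have no depth or error per culture. In the deposited lists, the score is the scaled irreproducible discovery rate (IDR, lowest 540), the ratio is the fold enrichment of reads over local background at a summit, and the −log10 p-value is that of the peak caller. The background window is not given in the sources used here.

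Peaks with the same start and end were taken as 1 interval. Summit reads and local background were solved from fold enrichment and −log10 p under a Poisson model, which gave whole reads (tolerance 0.05) for 99.9993% of parent and 100% of ΔSRR2–18 peaks, and were divided by the lowest, genome-wide background. TSSs came from GENCODE M21 basic annotation and sequence from GRCm38 (mm10). Intervals overlapping by at least 1 bp were shared. Consensus matches were exact and searched on both strands. Sequences are shown only for intervals that hold a match. CTCF and the NFI palindrome were searched by consensus, and the octamer was added after sequences were seen. An AP-1 match can lie inside a HOX-PBX match. Shares have Wilson intervals and height ratios exact binomial-based intervals, both at 95%.

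Members and lists were chosen with earlier results of these data known. Named intervals were those nearest to a TSS within 1 kb, the tallest in 1 list only, and the shared ones with the highest and lowest ratio per gene; further intervals were named after their values were seen. Alternatives were the optimal lists, stricter scores, overlap, distance and TSS rules, equal list lengths, a depth-scaled p, other scalings and ranks, and other motif windows. Scripts were tested on simulated data. Python 3.11.15, numpy 2.4.6, pandas 2.3.3, scipy 1.17.1 and matplotlib 3.10.9 were used.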

Additional observations from a re-analysis of the deposited data

How the results depend on the processing

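Distance and TSS rules moved the counts most. Within 10 kb, the 6 genes had 22 parent intervals (13 parent-only) and 11 ΔSRR2–18 intervals (3 deletion-only), and without a limit 157 (120) and 149 (113). With gene 5′ ends only, parent counts were 32 and 20. In lists of equal length, 11 ΔSRR2–18 intervals were deletion-only. The share of parent-only intervals exceeded that over all genes under each of these settings, while the deletion-only share lay on either side of it, and was 43.3% against 53.1% in the optimal lists. There, the single deletion-only intervals of *Sox13* and *Sox10* overlapped parent intervals. Pairs at least 2-fold higher numbered 1 with heights divided by the median pair and 2 in the optimal lists. Ranked by fold enrichment, the *Sox8* interval at 13.9 kb and the internal *Sox6* TSS were 11.2 and 18.3 percentage points higher in ΔSRR2–18 NSPCs, compared with −21.6 and −34.4 by height; the cause was not tested. AP-1 matches numbered 1 in parent intervals more than 1 kb from a TSS and 9 in ΔSRR2–18 intervals with a 50 bp window. Of 60 alternative values for the 6 genes together, 45 stayed within 1.5 times the reported value.

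No paired analysis was possible because the lists are pooled over cultures, which also prevents leaving out a culture. Each genotype is 1 clone, and pooled depth differed by 1.98-fold.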
